A study of Mus musculus with 12 samples.

Results

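The mitochondrial genome of the mouse is a small circle that codes for 37 RNAs: 13 mRNAs, 2 rRNAs and 22 tRNAs. All 37 were found by their mt- symbols among the 56923 rows of the deposited count table, and all 37 passed the filter on low counts. Liver RNA came from 12 C57BL/6J wild-type animals, 3 in each of 4 groups, which the labels call biological replicates. Every mouse, aged 6 weeks at the start, had 200 µL of 7.5% carbon tetrachloride (CCl4, a liver toxin) in olive oil injected into the peritoneum 2 times a week for 6 weeks. The control group had CCl4 alone. The others also received curcumin, a polyphenol of turmeric, by gavage each day for 2 weeks, the low dose being 25 mg/kg, the medium dose 50 mg/kg and the high dose 100 mg/kg. No liver without CCl4 was analysed here, the labels do not say whether controls were gavaged, and mice were kept 3 to a cage, so that cage and group may coincide.

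Mitochondrial DNA is transcribed from both strands into long precursors. The tRNAs lie between most of the mRNAs and rRNAs, and their removal by RNase P and RNase Z frees the neighbouring RNAs, a scheme known as tRNA punctuation. The mRNAs encode core subunits of respiratory complexes I, III, IV and V, the rRNAs build the mitochondrial ribosome, and the tRNAs serve translation within the organelle. Hepatocytes are rich in mitochondria, and mitochondrial transcripts are often abundant in RNA from liver.

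The libraries held 36015134 to 70376474 counts. The 37 members took 30.3% (high replicate 1) to 64.7% (high replicate 2) of them, with high replicate 3 at 42.1%, low replicate 3 at 43.0% and medium replicate 1 at 48.3%. In bulk tissue, fewer cells of a type and less RNA per cell cannot be told apart. All 10 hepatocyte markers were detected in all 12 libraries. Summed markers of skeletal muscle reached 226 CPM (scaled to the counts outside mitochondrial genes and their copies) in high replicate 1 and stayed at or below 1.36 CPM in the other 11. Neutrophil markers summed to 27.9 to 97.9 CPM in control and 9.83 to 22.5 CPM in the curcumin libraries, and Kupffer cell markers to 265 to 688 and 121 to 250 CPM. B cell markers summed to 46.4 to 125 CPM in control and 13.5 to 46.7 CPM with curcumin. Stellate cell markers were at 162 to 362 CPM at the high dose, above the 122 to 160 CPM of control, and overlapped with control at the other doses. Hepatocyte markers ranged from 26398 to 140770 CPM and overlapped between all groups. The part of these cells and of the mitochondrial share in the results that follow was not tested, except where a relation to the share is given.

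Within the mitochondrial counts the mRNAs took 97.5% to 99.1%, the rRNAs 0.616% to 2.03% and the tRNAs 0.319% to 0.464%. The most abundant member was mt-Co1, the catalytic subunit of cytochrome c oxidase, with 32.1% to 34.8% of the mitochondrial counts in every library. It was also the steadiest, with a coefficient of variation (SD over mean, 12 libraries) of 2.29%, against 28.2% for mt-Nd6, the most variable mRNA. In the counts as deposited mt-Cytb, the only mitochondrially encoded subunit of complex III, followed with 10.3% to 14%. No near-identical nuclear copy of mt-Cytb was found, whereas copies of mt-Atp6, mt-Co2 and mt-Co3, described below, had about as many counts as these members. The place of mt-Cytb may thus depend on how shared reads were counted. Among the tRNAs, 13 of 22 had a mean below 1000 counts, and the lowest, mt-Tv, had 8 to 33 counts in a library.

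Levels were compared between members per length, as counts per kilobase in percent of their sum over the 37. Counts of near-identical nuclear copies, described below, were not added. For mRNAs with such a copy, their place in this order may depend on how shared reads were counted. On this scale mt-Co1 stood at 20.4% ± 0.539 (SD, n = 12). Then came mt-Atp6, a channel subunit of the ATP synthase, at 10.9% ± 0.286, mt-Cytb at 10.3% ± 0.783, mt-Co2 at 9.64% ± 0.507 and mt-Co3 at 9.47% ± 0.504, and of these 4 each overlapped in its spread with the next. mt-Atp8, mt-Nd2, mt-Nd1 and mt-Nd4 formed a second step between 5.94% and 6.51% that also overlapped. mt-Nd3 (2.61%) and mt-Nd4l (2.59%) did not differ beyond their spread, and mt-Nd5, a proton-pumping subunit of complex I, lay lower at 1.69% ± 0.391. The level of mt-Nd6, the only mRNA coded on the opposite strand, was the lowest of the mRNAs at 0.574% ± 0.165. The rRNAs stood near it as counted, at 0.617% ± 0.166 for mt-Rnr1 of the small ribosomal subunit and 0.464% ± 0.125 for mt-Rnr2 of the large one. The labels name total RNA and a library kit, and the sources used here do not give whether polyadenylated RNA was selected. How far library preparation kept rRNAs and short RNAs was not examined. Counts of the rRNAs and tRNAs may thus not reflect their levels in the tissue.

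**Figure D1:**
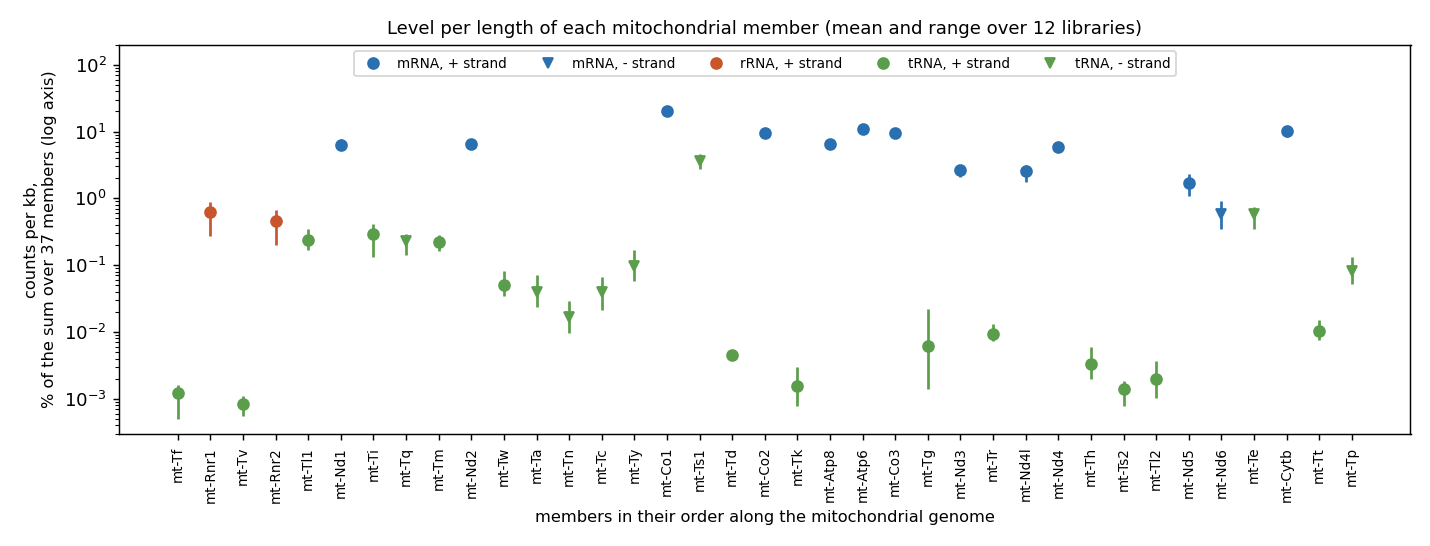
Mean counts per kilobase of each member, in percent of the sum over the 37 members (log axis), in the order of the genes along the mitochondrial genome. Points are means over 12 libraries, bars span the lowest to the highest library, triangles mark genes on the - strand, and mt-Ts1 is the tRNA that lies among the mRNAs. Counts of nuclear copies are not added.

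A single tRNA stood far above the others per length. mt-Ts1, a serine tRNA, was at 3.58% ± 0.571 on the per-length scale, while the next tRNA, mt-Te (glutamate), was at 0.580%. The value of mt-Ts1 lay above that of mt-Nd3 as counted. A nuclear copy of mt-Nd3, described below, had about as many counts as mt-Nd3, so this order may depend on how shared reads were counted. mt-Ts1 held 57.8% to 74.4% of all tRNA counts in a library. The 8 tRNAs coded on the - strand, mt-Ts1 included, together held 80.5% to 87.7%. mt-Ts1 lies directly past the end of mt-Co1 on the opposite strand, and the mature mt-Co1 mRNA of mammals is known to run on through the antisense of this tRNA. The sources used here do not give whether counting used strand, so reads of mt-Ts1 and of the mt-Co1 tail cannot be told apart. Counts of the other tRNAs on the - strand may likewise hold reads of the opposite strand. The mt-Ts1 sequence is shown because this overlap bears on its count, with capitals for the 3 bases that lie opposite the last bases of mt-Co1 (GENCODE M21, GRCm38, chrM:6870-6938, - strand).
mt-Ts1: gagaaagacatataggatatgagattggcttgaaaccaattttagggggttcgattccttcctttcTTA

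Other members overlap their neighbours as well. mt-Atp8, a small ATP synthase subunit, and mt-Nd4l, a small complex I subunit, each share 1 RNA with the gene that follows. Capitals mark the 43 bases of mt-Atp8 (chrM:7766-7969, + strand) that also belong to mt-Atp6, and the 7 bases of mt-Nd4l (chrM:9877-10173, + strand) that also belong to mt-Nd4. These sequences are shown because the ratios of these pairs are reported further on.
mt-Atp8: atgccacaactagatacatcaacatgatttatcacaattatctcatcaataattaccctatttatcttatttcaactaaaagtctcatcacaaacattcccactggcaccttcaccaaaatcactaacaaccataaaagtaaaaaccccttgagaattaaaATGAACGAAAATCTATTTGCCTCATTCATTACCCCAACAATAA
mt-Nd4l: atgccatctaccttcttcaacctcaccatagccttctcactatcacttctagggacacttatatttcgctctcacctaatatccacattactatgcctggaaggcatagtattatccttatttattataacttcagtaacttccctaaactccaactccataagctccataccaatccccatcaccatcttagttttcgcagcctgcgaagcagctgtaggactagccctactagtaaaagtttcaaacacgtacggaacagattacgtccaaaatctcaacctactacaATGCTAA

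mt-Nd5 and mt-Nd6 meet end to end on opposite strands. Their last 60 bases are given with the 14 bases of overlap in capitals, which are reverse complements of each other (chrM:13506-13565, + strand, and chrM:13552-13611, - strand).
mt-Nd5 end: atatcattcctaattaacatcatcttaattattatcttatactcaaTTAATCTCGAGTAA
mt-Nd6 end: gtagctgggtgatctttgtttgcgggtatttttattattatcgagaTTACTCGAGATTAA

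Nuclear copies of mitochondrial DNA share reads with several mRNAs. Of the nuclear genes in GENCODE M21, 11 matched a member over 80% or more of their own length with 95% or more identical bases. Gm10925 was identical to mt-Atp6 over 678 bases, Gm28437 to mt-Co3 over 783 bases, Gm28661 to mt-Co2 over 681 bases and Gm10222 to mt-Nd4l over 294 bases. Gm28438 had 1 mismatch to mt-Nd3 in 345 bases. The counts of these 5 copies lay between 0.942 and 1.03 times those of their counterpart in every library.

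The other copies held fewer counts relative to their counterpart, whether they span a part of a member or all of it. Gm28439 matched 63.6% of mt-Nd4 and had 0.308 to 0.366 times its counts. Gm29216 matched 31.3% of mt-Co1 with 1 mismatch and had 0.162 to 0.220 times its counts. Gm13340 spans all of mt-Co1 with 37 mismatches and had 0.00736 to 0.0118 times its counts. Gm13341 spans all of mt-Co2 at an identity of 95.91% and had 0.0179 to 0.0242 times its counts. No annotated gene of this kind was found for mt-Atp8, mt-Nd1, mt-Nd6 or mt-Cytb. The search covered annotated transcripts only, so copies outside them, of mt-Atp8, mt-Ts1 or other members, would not have been seen. The last bases of mt-Atp8 also belong to mt-Atp6 and may share reads with Gm10925. The sources used here do not give how reads that fit both places were counted, so the counts of mt-Atp6, mt-Co1, mt-Co2, mt-Co3, mt-Nd3, mt-Nd4 and mt-Nd4l are uncertain by about these ratios. With the copies added, the mitochondrial part of all counts came to 41.2% to 87.0%.

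**Figure D2:**
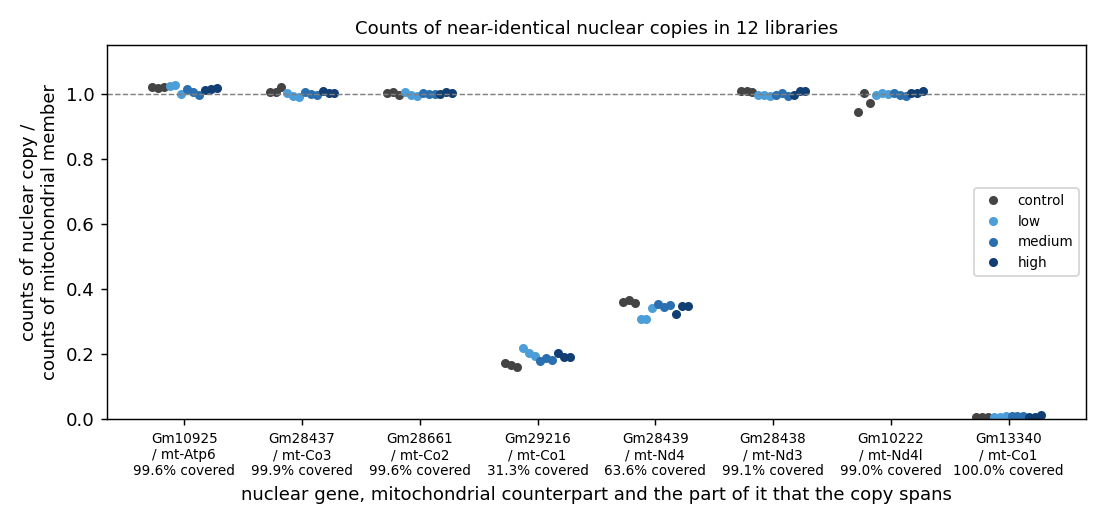
Counts of 8 nuclear copies divided by those of their mitochondrial counterpart (vertical axis, linear) in the 12 libraries, coloured by group, with the part of the counterpart that each copy spans. The 5 copies that span nearly all of a member with at most 1 mismatch lie near 1, the copies of parts of mt-Nd4 and mt-Co1 lie lower, and Gm13340, which spans mt-Co1 with 37 mismatches, lies near 0.

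The first question on curcumin was whether the make-up by type differed at each dose. The tRNA share of the mitochondrial counts was 0.386%, 0.339% and 0.319% in control, 0.452%, 0.416% and 0.454% at the low dose, 0.411%, 0.412% and 0.414% at the medium dose, and 0.427%, 0.397% and 0.464% at the high dose (replicates 1, 2 and 3). All 9 curcumin libraries thus lay above all 3 controls. The differences were 0.0924, 0.0643 and 0.0813 percentage points, each with an exact two-sided permutation p = 0.1, the smallest that 3 libraries against 3 can give, so that none could pass 0.05. Group means did not rise with dose (0.440%, 0.412% and 0.429%), and a line fitted to dose rose by 0.0592 ± 0.0304 percentage points per 100 mg/kg (SE, n = 12; permutation p = 0.0776, adjusted over 6 slopes p = 0.245). Without mt-Ts1 the tRNA share was 0.114% to 0.156% in control and 0.115% to 0.191% in the curcumin libraries, and these overlapped. Across libraries the tRNA share had r = -0.500 with the mitochondrial share of all counts (permutation p = 0.0949, adjusted over 5 relations p = 0.174; Spearman rho = -0.552, permutation p = 0.0671, adjusted p = 0.336; r = -0.427 without the 2 libraries farthest from the median share, high replicates 1 and 3).

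The rRNA share showed no such separation. It was 1.39%, 1.55% and 0.616% in control, 1.16%, 1.66% and 2.03% at the low dose, 1.33%, 1.09% and 1.88% at the medium dose, and 1.70%, 1.33% and 1.24% at the high dose. Control replicate 3 was the lowest of the 12 for both mt-Rnr1 (0.276%) and mt-Rnr2 (0.340%), and low replicate 3 was the highest (0.898% and 1.13%). Exact permutation p-values against control were 0.4, 0.6 and 0.7, and without control replicate 3 the medium and high differences turned from 0.248 and 0.238 to -0.0361 and -0.0464 percentage points. The 95% Wilson intervals of these shares were at most ± 0.00585 percentage points wide (counting error only), far narrower than the spread between mice. The mRNA share overlapped with control at each dose too, with differences of -0.522, -0.312 and -0.319 percentage points and exact permutation p = 0.3, 0.6 and 0.6. With counts divided by gene length, which gives the short tRNAs more weight, the mRNA differences were -1.57, -1.08 and -1.33 percentage points, each with exact permutation p = 0.1, the smallest possible. On that scale the tRNA differences were 1.25, 0.895 and 1.13 percentage points (exact permutation p = 0.1 each) and the rRNA differences had exact permutation p = 0.4, 0.6 and 0.6. The shares of the types sum to a whole, so the mRNA and tRNA differences are not separate results. Per length mt-Ts1 stood at 3.58% and the next tRNA, mt-Te, at 0.580%, and the shares were not recomputed without mt-Ts1 on this scale.

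The rRNAs kept nearly the same proportion to each other in 11 libraries. The log2 ratio of mt-Rnr2 to mt-Rnr1 counts was 0.23 to 0.43 there and 0.05 in high replicate 1, the library with the lowest mitochondrial share and with the muscle markers. Its slope on dose was -0.12 ± 0.07 over 100 mg/kg (permutation p = 0.122, adjusted p = 0.245), and -0.03 without high replicate 1. Its relation to the mitochondrial share, r = 0.670 (permutation p = 0.0198, adjusted p = 0.0991; Spearman rho = 0.301, permutation p = 0.344, adjusted p = 0.473), turned to -0.223 without high replicates 1 and 3, and so rests on these libraries.

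**Figure D3:**
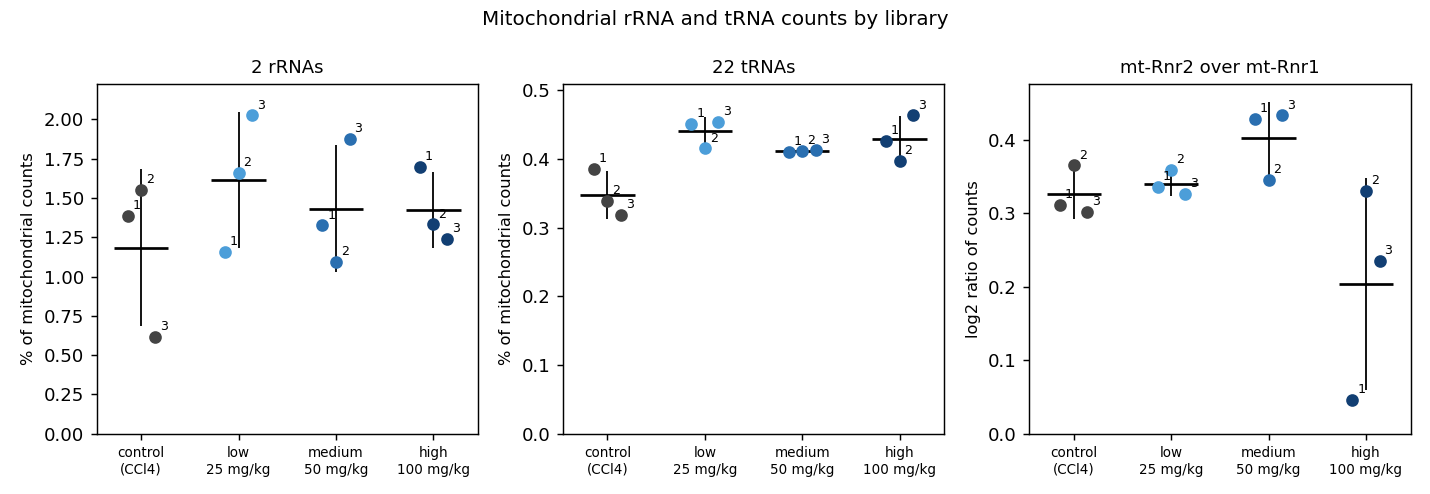
Share of the rRNAs (left) and tRNAs (middle) in the mitochondrial counts, in percent, and the log2 ratio of mt-Rnr2 to mt-Rnr1 counts (right), per library with its replicate number. Bars are group means and SDs (n = 3), and all curcumin libraries lie above the controls in the tRNA panel, with wide overlap in the rRNA panel.

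Among the complexes, the mRNAs of complex I took 26.8% to 29.5% of the mRNA counts, the 3 of complex IV 47.7% to 52.1%, mt-Cytb of complex III 10.5% to 14.1% and the 2 of complex V 8.85% to 10.1%. The complex I share had a slope of 0.956 ± 0.751 percentage points over 100 mg/kg (permutation p = 0.226, adjusted p = 0.339), which was 0.379 with copies added to their counterparts and 1.57 without high replicate 1. It had no relation to the mitochondrial share that passed (r = -0.204, permutation p = 0.529, adjusted p = 0.529; Spearman rho = -0.210, permutation p = 0.513, adjusted p = 0.513; r = -0.414 without high replicates 1 and 3; r = -0.0137 with copies added). High replicate 1 was the lowest of the 12 for mt-Cytb, mt-Nd4 and mt-Nd4l and the highest for mt-Co1, mt-Co3 and mt-Nd1.

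mt-Atp8 was lower in every curcumin library than in every control. It took 1.63%, 1.72% and 1.65% of the mitochondrial counts in control, 1.20%, 1.25% and 1.39% at the low dose, 1.35%, 1.5% and 1.39% at the medium dose, and 1.28%, 1.42% and 1.24% at the high dose. mt-Ts1 lay on the other side. It took 0.23%, 0.205% and 0.205% in control, 0.336%, 0.300% and 0.262% at the low dose, 0.246%, 0.271% and 0.245% at the medium dose, and 0.302%, 0.249% and 0.312% at the high dose. These were the only members whose 9 curcumin libraries all lay on one side of the 3 controls on this scale, where 0.0297% of all 16839 genes tested lay lower and 0.356% higher in that way. Nearly all of those genes are nuclear, and their values on this scale also move with the mitochondrial share of a library. The percentages therefore do not tell how rare such a separation is among members. mt-Atp8 and mt-Ts1 were singled out for this separation after their values were seen, so the separation was not tested. Their edgeR results at each dose are given below. The ranges stayed apart when copies were added to their counterparts (mt-Atp8 1.21% to 1.28% in control and 0.877% to 1.11% with curcumin, mt-Ts1 0.153% to 0.171% and 0.183% to 0.246%). No copy was added to mt-Atp8 or mt-Ts1 themselves. Only the total changed, so this is no separate support for the separation.

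Ratios between neighbours do not depend on the total that is used. mt-Atp8 counts were 20.6% ± 0.441 of mt-Atp6 counts in control (SD, n = 3), against 16.2% ± 1.24, 17.9% ± 0.607 and 16.6% ± 1.36 at the low, medium and high dose. mt-Nd4l counts were 10.5% ± 0.297 of mt-Nd4 counts in control and 8.43% ± 0.828, 9.75% ± 0.329 and 8.83% ± 0.972 at the doses. In both pairs the small upstream reading frame had fewer counts relative to its downstream partner in all 9 curcumin libraries, by a narrow margin for mt-Nd4l (10.1% in medium replicate 1 against 10.2% in control replicate 1). The members of each pair share 1 RNA and some bases on the same strand. How reads over the shared bases were counted is not given, so these ratios do not measure levels of separate RNAs.

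The other pairs involve both strands. mt-Ts1 counts were 0.646% ± 0.0562 of mt-Co1 counts in control and 0.898% ± 0.0844, 0.750% ± 0.0460 and 0.845% ± 0.0819 at the doses. mt-Nd5 counts were 11.2 to 12.1 times those of mt-Nd6 in control and 8.55 to 11 times in the curcumin libraries. Since it is not given whether counting used strand, the counts of mt-Nd6, like those of mt-Ts1, may hold reads of the opposite strand. These 4 ratios were chosen after the values were seen and were not tested. Of all 666 pairs of members, 6.91% had ratios that separated the 9 curcumin libraries from the 3 controls, and of the 78 pairs of mRNAs 15.4% did, 12 pairs of which 6 involve mt-Atp8. With copies added to their counterparts the mt-Nd4l ratio overlapped between control (14.5% to 15.6%) and curcumin (11.9% to 15.0%), and the other 3 stayed apart. In these 3 pairs copies were added to 1 member only, so this is weak support for the separation.

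**Figure D4:**
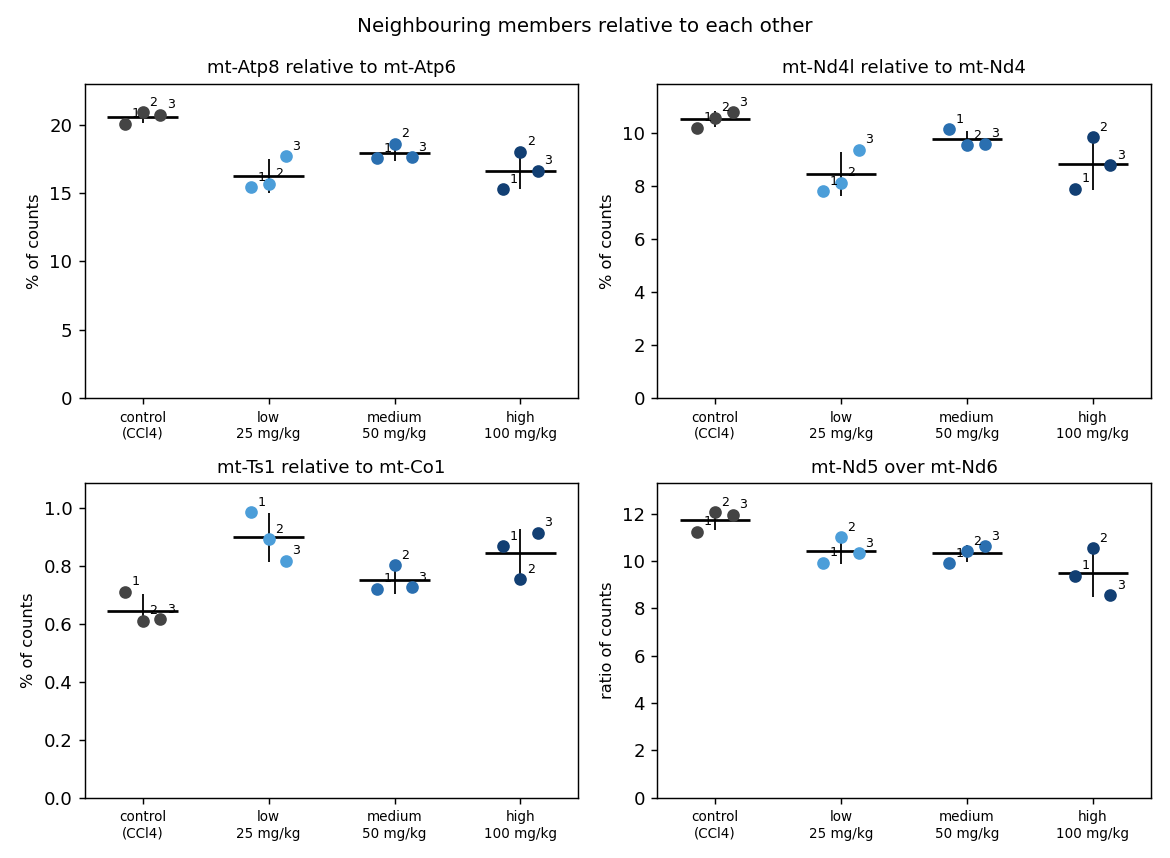
Counts of mt-Atp8 in percent of mt-Atp6, mt-Nd4l in percent of mt-Nd4, mt-Ts1 in percent of mt-Co1, and the ratio of mt-Nd5 to mt-Nd6 counts, per library with its replicate number. Bars are group means and SDs (n = 3), and in each panel the 9 curcumin libraries lie on one side of the 3 controls.

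mt-Nd6, a complex I subunit, and mt-Nd5 rose and fell together between libraries more than between groups. mt-Nd6 took 0.283%, 0.214% and 0.334% in control, 0.241%, 0.192% and 0.351% at the low dose, 0.453%, 0.307% and 0.308% at the medium dose, and 0.291%, 0.333% and 0.501% at the high dose. mt-Nd5 was highest in medium replicate 1 (4.49%) and high replicate 3 (4.28%) too, and lowest in low replicate 2 (2.11%), as was mt-Nd6. Their log2 shares had r = 0.940 over 12 libraries, a description of members that share libraries and bases, and may share reads if counting ignored strand. The mt-Nd6 share of mRNA counts had a slope of 0.118 ± 0.0646 percentage points over 100 mg/kg (permutation p = 0.0956, adjusted p = 0.245), and 0.0606 without high replicate 3. Its relation to the mitochondrial share did not pass (r = -0.489, permutation p = 0.104, adjusted p = 0.174; Spearman rho = -0.364, permutation p = 0.245, adjusted p = 0.473), with r = -0.623 without high replicates 1 and 3.

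The tRNAs that flank the origin of light-strand replication moved as a block. mt-Tw, mt-Ta, mt-Tn, mt-Tc and mt-Ty (tryptophan, alanine, asparagine, cysteine and tyrosine) lie side by side between mt-Nd2 and mt-Co1. Together they stood at 165, 140 and 117 CPM of the mitochondrial total in control, 106, 118 and 276 at the low dose, 277, 202 and 214 at the medium dose, and 126, 194 and 179 at the high dose. All 3 medium libraries lay above all 3 controls, and this separation was not tested. Of all genes tested on this scale at that dose, 26.6% separated upward as well. Nearly all of those genes are nuclear, and their values on this scale also move with the mitochondrial share of a library. That percentage is therefore no background for the make-up within the mitochondrial counts. Low replicate 3 stood with the medium libraries and low replicates 1 and 2 with the control. Pairwise correlations of their log2 shares ran from 0.858 to 0.997 over the 12 libraries, which share depth and neighbouring sequence. The 5 were grouped after their values were seen. mt-Tw is coded on the + strand and the others on the - strand, and their counts may hold reads of the opposite strand.

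The glycine tRNA mt-Tg was irregular. Its counts were 35, 52 and 48 in control, 52, 444 and 76 at the low dose, 373, 52 and 45 at the medium dose, and 216, 45 and 35 at the high dose. Thus 1 library in each curcumin group stood far above the rest, at 11.4 (95% Wilson interval 10.4 to 12.5, counting error only), 16.1 (14.5 to 17.8) and 11.5 (10.1 to 13.2) CPM of the mitochondrial total, where the other 9 ranged from 1.03 to 2.93. Its neighbour mt-Nd3 was also highest in these libraries, at 1.12% of the mitochondrial counts in low replicate 2, 1.05% in medium replicate 1 and 1.1% in high replicate 1, but the other 9 reached from 0.768% to 1.02%. mt-Co3 on the other side was highest in high replicate 1 (8.77%), and low replicate 2 and medium replicate 1 lay within the range of the rest. The coefficients of variation of these shares were 5.59% for mt-Co3, 10.3% for mt-Nd3 and 118% for mt-Tg. Its sequence is shown since it is the member with the largest spread (chrM:9391-9458, + strand).
mt-Tg: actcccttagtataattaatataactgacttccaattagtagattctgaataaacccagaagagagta

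**Figure D5:**
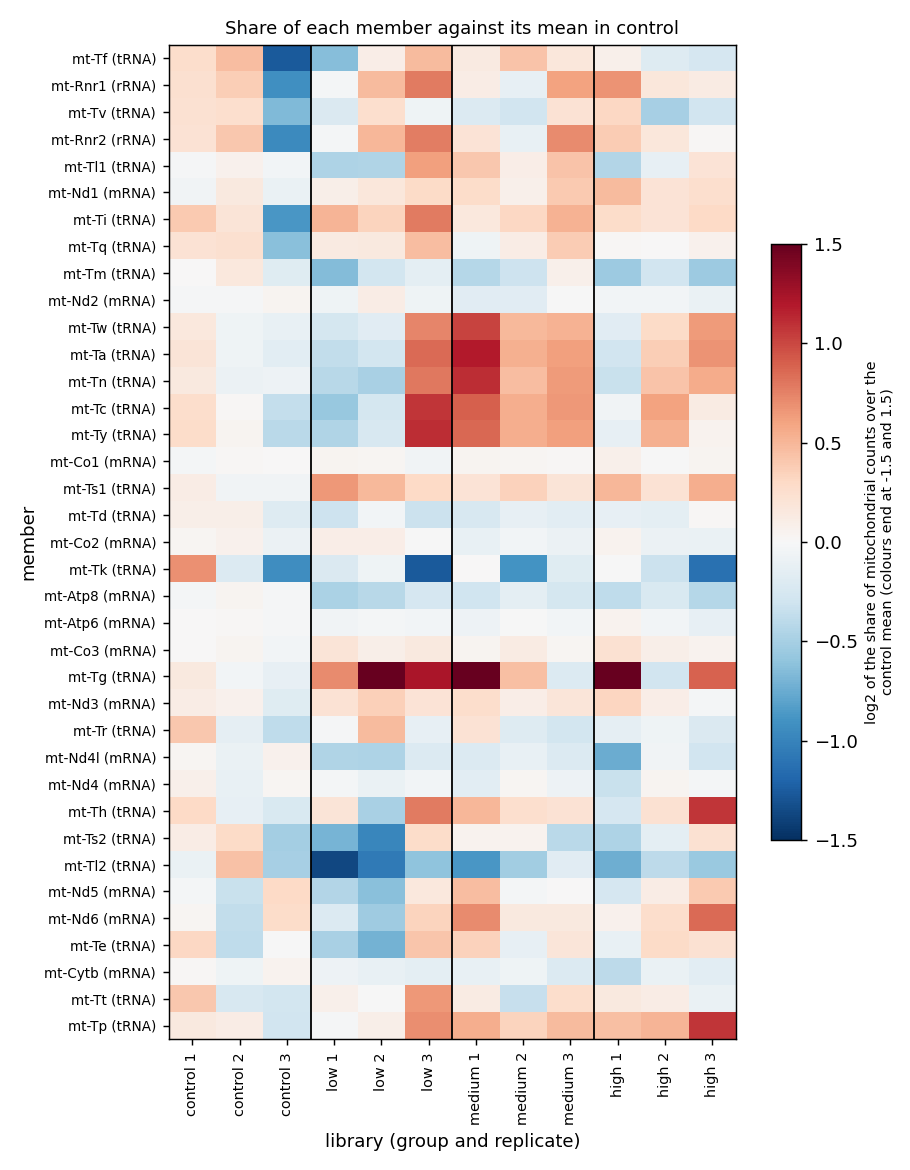
Share of each member in the mitochondrial counts of a library (columns, by group and replicate), as the log2 of its ratio to the control mean (colour). mt-Atp8 is below and mt-Ts1 above the control mean in every curcumin column, the tRNAs from mt-Tw to mt-Ty shift together, and mt-Tg is far above in 3 columns.

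Each dose was then tested against control across all genes, to ask whether members changed relative to the bulk of transcripts. edgeR's quasi-likelihood test with TMM normalization called 0 of the 37 members at any dose at an adjusted p under 0.05, as it called 0% of all 16839 genes (DESeq2 called 42, 89 and 172 genes). At an unadjusted p under 0.05 it had 1, 0 and 0 members at the low, medium and high dose, against 5.99%, 5.58% and 12.8% of all genes, and DESeq2 called 0 members too, with 1, 0 and 0 unadjusted. At the medium dose 31 of 37 members lay below control (median log2 fold change -0.45), and at the high dose 35 of 37 did (median -0.53). The medians over all genes were 0.02 and 0.03. At the low dose 23 of 37 lay above, with a median of 0.08 that turned to -0.08 with library totals as the scale and to -0.03 with totals over all other genes, copies left out as well (all genes 0.01, 0.11 and -0.14). With library totals as the scale the medium median was -0.02 and the high median -0.35, where the medians over all genes were 0.47 and 0.71.

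Single libraries set these medians. The high median was -0.13 without high replicate 1, -0.22 without high replicate 3 and -1.75 without high replicate 2, where 35 members had an unadjusted edgeR p under 0.05 and 0 passed. The low median was 0.42 without low replicate 3, -0.03 without low replicate 1, -0.22 without low replicate 2, 0.20 without control replicate 3 and 0.01 without control replicate 2. The medium median was -0.73 without medium replicate 3. On the TMM scale 0, 0 and 0 members lay above all controls in all 3 dosed libraries (all genes 7.41%, 7.61% and 6.47%) and 2, 9 and 0 lay below (6.36%, 6.38% and 6.52%). The 9 at the medium dose were mt-Co2, mt-Atp6, mt-Atp8, mt-Cytb, mt-Nd4l, mt-Td, mt-Tr, mt-Ts2 and mt-Tl2. The members with the smallest p were mt-Tg and mt-Tl2 at the low dose (log2 fold change 2.48 ± 1.00 and -0.99 ± 0.69, SE; edgeR adjusted p = 0.803 and 0.859) and at the medium dose (1.41 ± 0.97 and -0.96 ± 0.68; adjusted p = 0.997 for both). At the high dose they were mt-Tl2, a leucine tRNA, and mt-Tm, the methionine tRNA (-1.06 ± 0.68 and -0.95 ± 0.68; edgeR adjusted p = 0.502 and 0.544). Without high replicate 1 these were at -0.61 and -0.53, without high replicate 2 at -2.42 and -2.36, and mt-Tm was at -0.60 without high replicate 3. mt-Tl2 was at -0.66 without low replicate 3 and -1.45 without medium replicate 3, and mt-Tg at 0.62 without low replicate 2 and -0.28 without medium replicate 1.

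The same test with the mitochondrial total as the library size asks for changes of make-up. It called 0 members and 0% of all genes at each dose, with 0, 1 and 0 members at an unadjusted p under 0.05 (1.19%, 1.66% and 28% of all genes), and DESeq2 called 0 members, with 1, 1 and 0 unadjusted. Without high replicate 2 edgeR called 7671 genes at the high dose and 0 members. On this scale the spread is shared with nuclear genes, whose medians were at 0.38, 0.65 and 1.38. In simulated counts for the high dose the test then recovered 0% of 4-fold and 16% of 8-fold changes, so a count of 0 says little. mt-Ts1 had log2 fold changes of 0.49 ± 0.86, 0.25 ± 0.86 and 0.43 ± 0.86 at the doses, and mt-Atp8 -0.38 ± 0.98, -0.24 ± 0.98 and -0.34 ± 0.98, all with edgeR adjusted p from 0.693 to 1. The members with the smallest p were mt-Tg at every dose (2.12 ± 1.04, 2.32 ± 1.05 and 1.98 ± 1.04; edgeR adjusted p = 1, 0.826 and 0.195), followed by mt-Tl2 at the low dose (-0.97 ± 0.73, adjusted p = 1), mt-Ta at the medium dose (0.81 ± 0.62, adjusted p = 0.826) and mt-Tp, a proline tRNA, at the high dose (0.71 ± 0.63, adjusted p = 0.383). Without low replicate 2, medium replicate 1 or high replicate 1 the mt-Tg value of that dose was 0.99, 0.16 or 0.40.

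Members on this scale that did not overlap with control numbered 4 above and 5 below at the low dose (all genes 1.3% and 1.1%), 9 above and 2 below at the medium dose (26.6% and 0.576%) and 4 above and 4 below at the high dose (4.73% and 0.279%). At the low dose mt-Ts1, mt-Co3, mt-Tg and mt-Nd3 lay above, and mt-Atp8, mt-Atp6, mt-Nd4l, mt-Tl2 and mt-Cytb below. The medium dose had 8 tRNAs and mt-Co1 above, among the tRNAs mt-Ts1 and the block from mt-Tw to mt-Ty, and mt-Atp8 and mt-Nd4l below. The high dose had mt-Nd1, mt-Ts1, mt-Co3 and mt-Tp above, and mt-Tm, mt-Nd2, mt-Atp8 and mt-Cytb below. The 3 comparisons share the control libraries. Nearly all genes tested are nuclear, so the percentages over all genes also move with the mitochondrial share of a library.

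Nuclear genes that make and process mitochondrial RNA were taken from a list of 54 genes, of which 53 were tested on the TMM scale. They include the polymerase gene Polrmt, the DNA-packaging factor gene Tfam, the RNase P subunit gene Trmt10c, the RNase Z gene Elac2 and the stabilizing factor genes Lrpprc and Slirp. edgeR called 0 of them at each dose (0% of all genes), DESeq2 0, and edgeR had 1, 1 and 4 at an unadjusted p under 0.05 (5.99%, 5.58% and 12.8% of all genes). At the low dose 28 lay above and 25 below control (median log2 fold change 0.02), at the medium dose 37 and 16 (0.13), and at the high dose 20 and 33 (-0.13). These splits moved with the scale. With library totals 37, 52 and 49 lay above (medians 0.12, 0.55 and 0.46, where all genes had 0.11, 0.47 and 0.71), and with totals over all other genes 18, 27 and 9 did (-0.12, 0.03 and -0.30, where all genes had -0.14, -0.08 and -0.24). The low median was -0.04 without control replicate 2, -0.02 without low replicate 2 and 0.10 without control replicate 3. The medium median was 0.22 without control replicate 3, and the high median was 0.02 without high replicate 1 and -0.28 without high replicate 2.

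The list genes with the smallest p at the low dose were Pde12, which removes poly(A) tails in mitochondria (0.78 ± 0.24, SE; edgeR adjusted p = 0.780), the rRNA methyltransferase gene Mrm3 (0.57 ± 0.28), Mrpl12 (0.81 ± 0.41) and the oligoribonuclease gene Rexo2 (0.61 ± 0.33). Mrm3 was at 0.19 without low replicate 3, and Mrpl12 at 0.38 without low replicate 2. At the medium dose they were Pde12 (0.55 ± 0.24), Mrm3 (0.57 ± 0.28), Primpol (-0.72 ± 0.39) and the tRNA methyltransferase gene Trmt61b (0.61 ± 0.35), with edgeR adjusted p from 0.885 to 0.997. At the high dose they were Rexo2 (1.04 ± 0.33), Primpol (-1.22 ± 0.40), Mrm3 (0.83 ± 0.28) and Slirp (1.06 ± 0.46), with edgeR adjusted p from 0.371 to 0.386. Without high replicate 1 Rexo2 was at 0.54 and Slirp at 0.68. None passed the test.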

How the data were processed

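The values deposited by the authors are raw counts per Ensembl gene for each library, all whole. The submitters' processing notes name mm39, StringTie 2.2.1, STAR 2.7.10b and fastp 0.23.4. All 12 columns matched a label, with 0 left over. Symbols came from GENCODE M21 (91.5% of IDs, IDs without one holding 0.812% of counts), which is for GRCm38, so coordinates and sequences printed are of that build. Nuclear copies were searched with BLAST+ 2.17.0. Library totals of 36015134 to 70376474 make 3 counts worth 0.0426 to 0.0833 CPM.

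Gene tests used R 4.3.3 and edgeR 4.0.16 (filterByExpr, 16839 genes, all 12 libraries in 1 fit, Benjamini-Hochberg over all genes), with TMM or with mitochondrial totals as library sizes. DESeq2 1.42.0 was an alternative. Shares were compared by exact permutation, slopes and relations with 100000 permutations. In simulated counts for the high dose (16839 genes) the TMM test found 14% of the genes changed 2-fold, 74% at 4-fold and 96% at 8-fold. Members, lists and tests were chosen with earlier results of these data known. The rule for named genes gives mt-Rnr1, mt-Rnr2, mt-Co1, mt-Cytb, mt-Nd5, mt-Nd6, mt-Atp8, the most abundant tRNAs, and the members and list genes with the smallest p. No library is a second copy of another of its group (lowest chi-square over its degrees of freedom 42.0).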

Additional observations from a re-analysis of the deposited data

How the results depend on the processing

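The counts of members called on both scales and of list genes called on the TMM scale stayed at 0 under every alternative that was run: DESeq2, no filter on low counts, library totals or totals without mitochondrial genes and copies as the scale, mitochondrial mRNA totals, copies added to counterparts, the replicate block and each library left out (range 0 to 0). Without control replicate 3, slopes over 100 mg/kg turned for the rRNA share (-0.122 percentage points) and the mRNA share (0.0834). So did the rRNA differences at the medium and high dose (-0.0361 and -0.0464). With libraries left out the rRNA differences ranged from 0.146 to 0.657 (low), -0.0361 to 0.431 (medium) and -0.0464 to 0.420 (high), the rRNA slope from -0.122 to 0.242 and the mRNA slope from -0.290 to 0.0834. Those of the tRNA share ranged from 0.0779 to 0.112, 0.0498 to 0.0834 and 0.0641 to 0.10. The relation of the rRNA ratio to the mitochondrial share passed without medium replicate 1 (r = 0.792, permutation test, adjusted p = 0.0393) and ranged from 0.227 to 0.792. That of the mt-Nd6 share passed without high replicate 1 (r = -0.759, permutation test, adjusted p = 0.0426) and ranged from -0.759 to -0.366. On the TMM scale mt-Tg at the medium dose turned to -0.28 without medium replicate 1 (range -0.28 to 1.85). The 4 ratios of neighbours kept their direction with copies added and without each library, alternatives added after seeing the data (mt-Atp8 -0.30 to -0.27, mt-Nd4l -0.25 to -0.18, mt-Nd5 -0.26 to -0.20 and mt-Ts1 0.32 to 0.43, log2). In each ratio the curcumin and control libraries did not overlap, so leaving out 1 library could not have turned it. Replicate numbers did not pair the samples: deviations of same-numbered libraries had correlations from -0.257 to 0.445, above 0.1 in 5 of 18 pairs, and the own number was the best match in 11 of 36 choices. Within replicate numbers the tRNA differences had exact permutation p = 0.25, the smallest possible, and with the block 0 members were called at each dose. On the mitochondrial scale the count over all genes at the high dose was 0 with edgeR, 360 without the filter, 1551 with DESeq2 and 7671 without high replicate 2, of which 0, 0, 4 and 22 were list genes. Depth limits the 13 tRNAs with a mean under 1000 counts most.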
